A study of Danio rerio with 17 samples.

Results

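The mitochondrial ribosome and the mitochondrial protein import machinery were followed through 78 genes in zebrafish liver, out of 8793 genes measured by a probe set with 1 gene symbol. The members were all genes whose symbol in the platform annotation starts with mrpl (38 genes), mrps (21), timm (11) or tomm (8). Their symbols are carried by 90 probe sets, and a gene with several was represented by the probe set with the highest mean over the arrays. The arrays were hybridised with total RNA of 17 livers, 1 array per fish, in a cross of sex and dietary carbohydrate. Females on 25% carbohydrate were fish 3, 20, 24, 49 and 51, females on 0% were fish 7, 8, 10, 25 and 27, males on 25% were fish 52, 53 and 54, and males on 0% were fish 11, 26, 30 and 66. The study text swaps the numbers of males between the diets, and the sample labels were followed. Strain, age and length of feeding are not given in the sources used here.

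Mitochondria keep their own ribosome, which translates the few membrane proteins of the respiratory chain that mitochondrial DNA encodes. The proteins of that ribosome, named Mrpl for the large and Mrps for the small subunit, are themselves encoded in the nucleus, made in the cytosol and imported. Import starts at the TOM complex of the outer membrane (Tomm proteins) and goes on through the TIM complexes of the inner membrane and the small Tim chaperones between the membranes. The liver is rich in mitochondria, and each of these proteins is present in many other cell types as well.

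Values are log2 signals as deposited, in which array medians lay between 3.52 and 3.61. Of the 78 genes, 67 lay above the array's median on all arrays, 5 on some of them and 6 (mrpl1, mrpl43, mrps16, mrps33, timm21 and timm8a) on none. The table holds no detection calls, so the sizes of differences for these last 6 are not exact. Hepatocyte markers, such as the liver fatty acid binding protein and transferrin genes, averaged between 11.60 and 12.11 in every fish (14 of 18 listed genes measured). Intestinal markers averaged 8.89 to 9.57 in male fish 11, 66 and 52 (14 genes of 25 measured, none below the array median on all arrays). In the other fish they averaged at most 6.06. Some results on males, such as the median over the 78 genes, are therefore also given without these 3 fish. Most male differences of single genes, and those of the comparison lists, are not given without them. In whole liver samples, fewer cells of a type and less RNA per cell cannot be told apart.

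Fish on 25% carbohydrate were compared with fish on 0% within each sex, to ask how the liver responds to dietary carbohydrate. Most of the 78 genes stood higher on 25% in both sexes, by small amounts, and few of these differences passed the test on their own. The median log2 difference was 0.26 in females and 0.27 in males (1.21-fold), while the median over all genes was -0.02 in females and -0.00 in males. The fitted difference was above 0 for 64 of 78 genes in females, against 45.2% of all genes, and for 69 of 78 in males, against 49.6%. In both sexes together it was above 0 for 59 of 78 genes, against 27.8% of all genes, and below 0 for 4, against 33% of all genes.

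With p adjusted over all 15502 probe sets and a threshold of 0.05, 1 of the 78 genes rose in females (2.19% of all genes did), none fell (0.216%), and 0 passed in males (0.136% of all genes higher, 0.0341% lower). At an unadjusted p below 0.05, 23 of 78 passed in females, against 14.3% of all genes, and 21 in males, against 9.17%. The groups did not overlap, with every fish on 25% above every fish on 0%, for 6 genes in females (3.26% of all genes) and 16 in males (4.06%). No gene had every fish on 25% below every fish on 0%, which 1.22% of all genes had in females and 3.03% in males. Groups were apart in both sexes for 3 genes, mrpl17, mrpl49 and mrps5 (0.239% of all genes). For mrps5 this holds for the brightest of its 3 probe sets. Averaged over the sexes, a contrast added after the values by sex had been seen, 4 genes rose (1.81% of all genes), none fell (0.489%), and the median was 0.28, with 70 of 78 above 0 against 47.2% of all genes. At an unadjusted p below 0.05, 40 of 78 passed, against 17.5% of all genes. Without male fish 53 all 4 of these calls were lost and mrps18b alone passed.

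**Figure D1:**
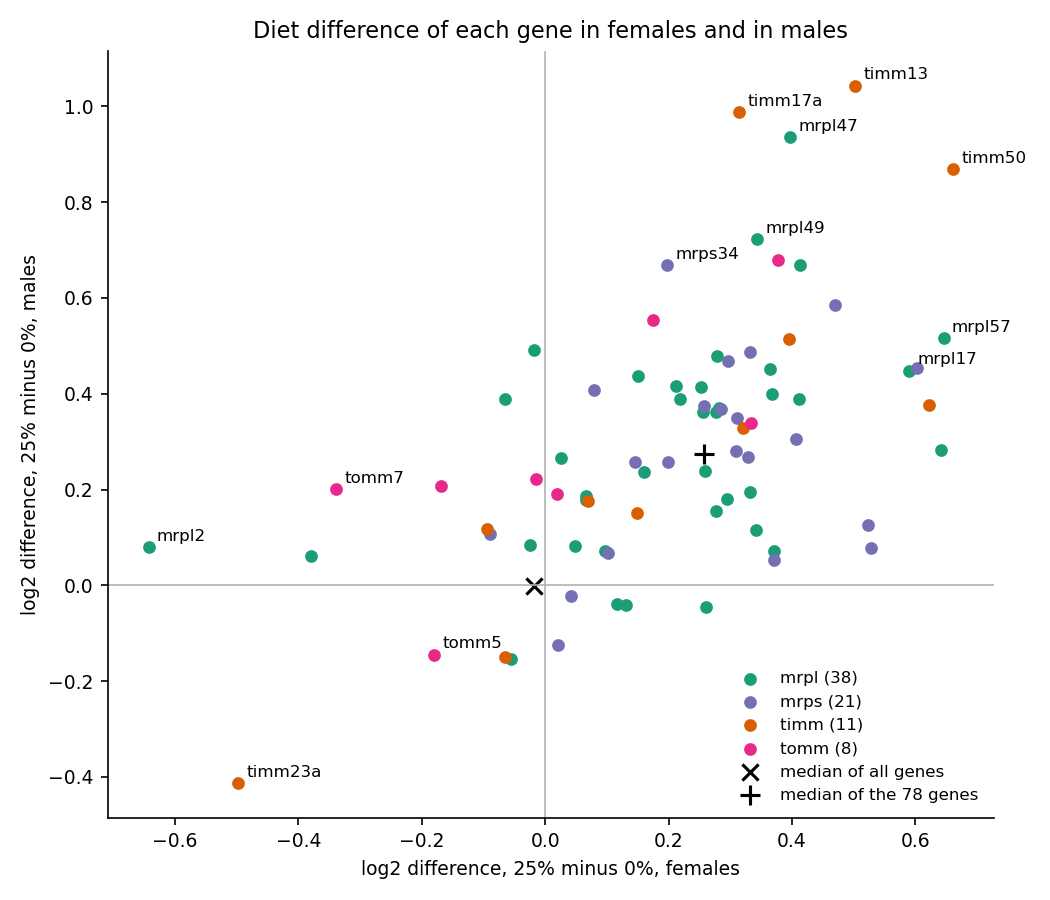
Log2 difference between 25% and 0% carbohydrate for each of the 78 genes, in females on the horizontal axis and in males on the vertical axis, coloured by family (number of genes in brackets). The upper right part, higher on 25% in both sexes, holds 59 genes, and their common median (plus sign) lies at 0.26 and 0.27, away from the median of all genes (cross) near 0; timm23a is the lowest gene in males.

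The large subunit of the mitochondrial ribosome held 2 of the 4 genes that rose averaged over the sexes. Mrpl17, counterpart of a bacterial large subunit protein, had 4.55, 4.64, 5.19, 5.08 and 5.09 in females on 25% (fish 3, 20, 24, 49 and 51), against 4.22, 4.49, 4.37, 4.27 and 4.25 in females on 0% (fish 7, 8, 10, 25 and 27). Its values were 4.51, 4.96 and 4.58 in males on 25% (fish 52, 53 and 54), against 3.89, 4.39, 4.40 and 4.26 in males on 0% (fish 11, 26, 30 and 66). All fish on 25% stood above all fish on 0% of their sex. The difference was 0.59 ± 0.14 in females (fit SE, adjusted p = 0.0367), 0.45 ± 0.17 in males (adjusted p = 0.472) and 0.52 ± 0.11 averaged over the sexes (adjusted p = 0.0225). Leaving out 1 fish at a time ended the female call in 8 of 17 cases, and the adjusted p reached 0.116 without female fish 24. When the fish left out was a female, the call held only without fish 3, 8 or 20. The averaged call was lost without male fish 53 (adjusted p = 0.0721) and without male fish 11, 52 and 66 (0.0842).

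Mrpl49, a large subunit protein that bacterial ribosomes lack, had 6.06, 6.46, 6.48, 6.34 and 6.08 in females on 25%, against 6.03, 5.84, 5.99, 5.89 and 5.94 in females on 0%, with the fish in the same order as before. In males its values were 6.51, 6.49 and 6.63 on 25%, against 5.25, 6.10, 5.96 and 5.98 on 0%. The groups were again apart in both sexes, narrowly in females, and male fish 11 stood far below the other males on 0%. The averaged difference was 0.53 ± 0.11 (adjusted p = 0.0187), with 0.34 ± 0.14 in females (adjusted p = 0.296) and 0.72 ± 0.16 in males (0.143). The call was lost without male fish 53 or 54 (highest adjusted p 0.0562) and passed without male fish 11, 52 and 66.

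Over the whole mrpl family the median diet difference was 0.26 in females, with 32 of 38 genes above 0, and 0.27 in males, with 34 of 38. Mrpl57, another mitochondria-specific protein, averaged 5.58 and 4.93 in females on 25% and 0%, and 5.89 and 5.37 in males on 25% and 0%. Its differences were 0.65 ± 0.20 in females (adjusted p = 0.149), where the groups did not overlap, and 0.52 ± 0.24 in males (adjusted p = 0.608). Mrpl47, counterpart of a bacterial protein beside the exit of the peptide tunnel, differed by 0.94 ± 0.34 in males and 0.40 ± 0.28 in females. Neither passed the test (adjusted p = 0.449 and 0.592). Without fish 52 the difference in males was 0.65, and without fish 24 that in females was 0.22. Mrpl47 was chosen after its values had been seen, as was mrpl2, a counterpart of the bacterial protein that supports the catalytic centre. Mrpl2 ran against its family in females, with means of 5.80 on 25% and 6.44 on 0% (-0.64 ± 0.23, adjusted p = 0.235), and differed little in males (0.08 ± 0.28, adjusted p = 0.984).

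The genes with the mrps prefix, not all of them for the small subunit, had a median difference of 0.30 in females, with 20 of 21 above 0. In males it was 0.28, with 19 of 21 above 0. Mrps34, a mitochondria-specific small subunit protein, had 5.91, 5.52, 6.07, 5.64 and 5.65 in females on 25%, against 5.59, 5.83, 5.44, 5.76 and 5.19 in females on 0%. Its values in males were 5.87, 5.70 and 5.84 on 25%, against 4.94, 5.32, 5.12 and 5.16 on 0%. The diets overlapped in females and were apart in males. The averaged difference was 0.43 ± 0.10 (adjusted p = 0.0375), with 0.20 ± 0.13 in females and 0.67 ± 0.15 in males (adjusted p = 0.556 and 0.146). This call was lost in 10 of 17 cases when 1 fish was left out and in 4 of 7 other alternatives, and the adjusted p reached 0.179 without male fish 11, 52 and 66.

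Mrps18a, whose human counterpart sits in the large subunit despite its name, averaged 6.42 and 5.81 in females on 25% and 0% (0.60 ± 0.17, adjusted p = 0.107) and 6.71 and 6.25 in males (0.45 ± 0.21, adjusted p = 0.594). Mrps12, counterpart of the bacterial protein at the decoding site, differed by 0.08 ± 0.16 in females and 0.41 ± 0.19 in males, and mrps11 by 0.02 ± 0.13 and -0.12 ± 0.16, none of them past the test. Mrps33 lay below the array median on all arrays, between 2.38 and 2.73. Split by whether bacterial ribosomes have a counterpart, a grouping made from knowledge of the human proteins after the values had been seen, the 35 genes with one had medians of 0.28 in females and 0.27 in males. The 24 mitochondria-specific genes had medians of 0.25 and 0.37.

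**Figure D2:**
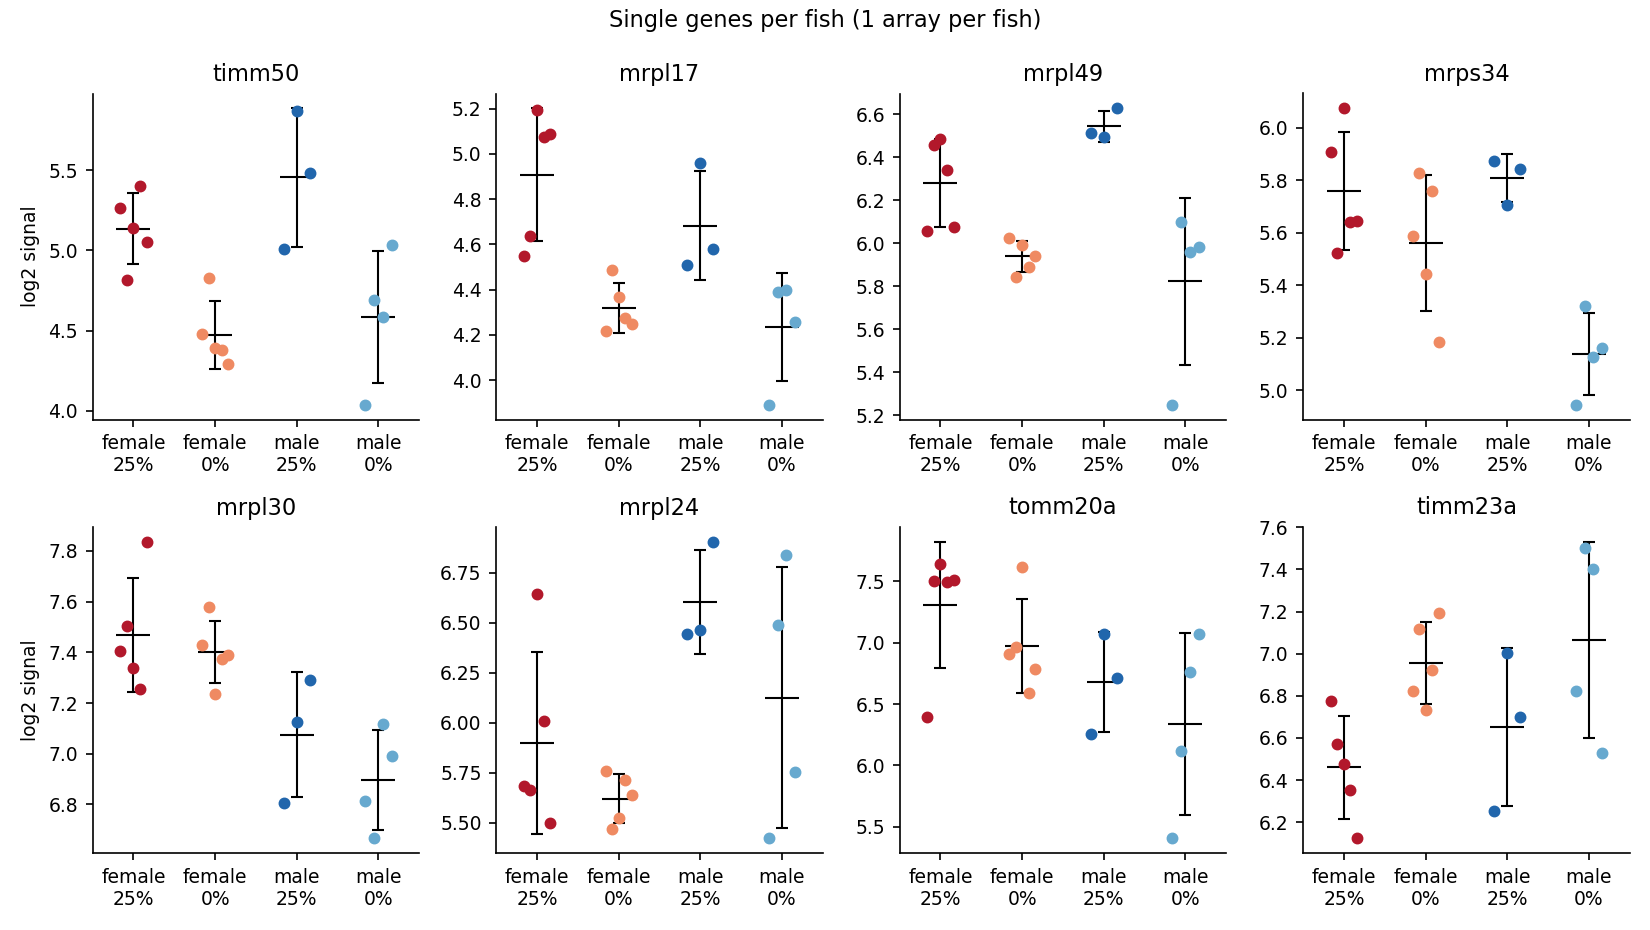
Log2 signal of 8 genes in each fish (points), with the mean and SD of each group (bars), for females and males on 25% and 0% carbohydrate. In mrpl17 and mrpl49 the 25% fish of each sex lie above the 0% fish of that sex, mrps34 is apart by diet in males, mrpl30 is higher in females, and timm23a has its higher means on 0%.

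Among the import genes, timm50 rose averaged over the sexes. Timm50 is the inner membrane receptor that takes proteins with a presequence over from the TOM complex and gates the TIM23 channel. It had 5.27, 4.81, 5.14, 5.40 and 5.05 in females on 25%, against 4.48, 4.83, 4.39, 4.38 and 4.29 in females on 0%. Males on 25% had 5.01, 5.87 and 5.48, against 4.04, 4.69, 4.58 and 5.03 in males on 0%. In each sex a single pair of fish overlapped, female fish 20 and 8 and male fish 52 and 66. The averaged difference was 0.76 ± 0.15 (adjusted p = 0.0157), with 0.66 ± 0.19 in females (adjusted p = 0.101) and 0.87 ± 0.22 in males (0.216). The averaged call was lost in 1 of 24 alternatives, without male fish 53 (adjusted p = 0.0518). The female difference passed without male fish 11, 52 and 66 (adjusted p = 0.0154), without male fish 11 and with only the female groups fitted. Those fits left out no female, so the female difference itself stayed at 0.66. It passed in no fit that left out a female.

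The paired membrane subunits of the TIM23 channel, encoded by timm17a and timm23a, had values of opposite sign. Timm17a averaged 6.15 and 5.84 in females on 25% and 0% (0.31 ± 0.22, and 0.10 without fish 24) and 6.72 and 5.73 in males on 25% and 0%, where the groups were apart (0.99 ± 0.27, adjusted p = 0.273). Timm23a was lower on 25%, with means of 6.46 and 6.96 in females (-0.50 ± 0.19, adjusted p = 0.277) and 6.65 and 7.07 in males on 25% and 0% (-0.41 ± 0.23, adjusted p = 0.7, and -0.21 without fish 52). Neither gene passed averaged over the sexes (adjusted p = 0.0755 for timm17a and 0.138 for timm23a). Timm44, which tethers the import motor to the channel, differed by 0.39 ± 0.16 in females and 0.51 ± 0.20 in males, without passing.

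Of the small Tim chaperones, which guide membrane proteins across the intermembrane space, timm13 averaged 6.89 and 6.38 in females on 25% and 0% (0.50 ± 0.27). In males it averaged 7.31 and 6.26, with the groups apart (1.04 ± 0.32, and 0.77 without fish 11). With an adjusted p of 0.467 in females, 0.346 in males and 0.0761 averaged over the sexes, it did not pass. Timm9 differed by 0.32 ± 0.15 and 0.33 ± 0.18 in females and males, timm8b by 0.62 ± 0.43 and 0.38 ± 0.52 (0.22 in females without fish 24 and 0.12 in males without fish 11), and timm8a, below the array median on all arrays, by -0.09 ± 0.07 and 0.12 ± 0.08. Timmdc1 is an assembly factor of respiratory complex I that shares the prefix, and its differences were -0.06 ± 0.12 and -0.15 ± 0.14. Over the 11 timm genes the medians were 0.31 in females and 0.33 in males.

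The 8 genes with the tomm prefix had a lower median than the other families in females, 0.00 with 4 of them above 0, and in males it was 0.21 with 7 above 0. The 7 without tomm34, which are parts of the TOM complex, had -0.01 in females and 0.21 in males. That difference between families was not tested. Tomm22, the central receptor of the TOM complex, averaged 6.08 and 5.71 in females on 25% and 0% (0.38 ± 0.22, and 0.19 without fish 49) and 6.57 and 5.89 in males (0.68 ± 0.26). Neither passed (adjusted p = 0.508 and 0.485), although the male groups were apart. Tomm40, the pore, differed by 0.02 ± 0.21 in females and 0.19 ± 0.26 in males. The small subunits tomm5 and tomm7 differed in females by -0.18 ± 0.17 and -0.34 ± 0.11 (adjusted p = 0.72 and 0.19), and in males by -0.14 ± 0.21 and 0.20 ± 0.13. Tomm34, a cytosolic co-chaperone that lay below the array median on 13 of 17 arrays, differed by 0.17 ± 0.21 in females and 0.55 ± 0.26 in males, and by 0.14 in males without fish 52.

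**Figure D3:**
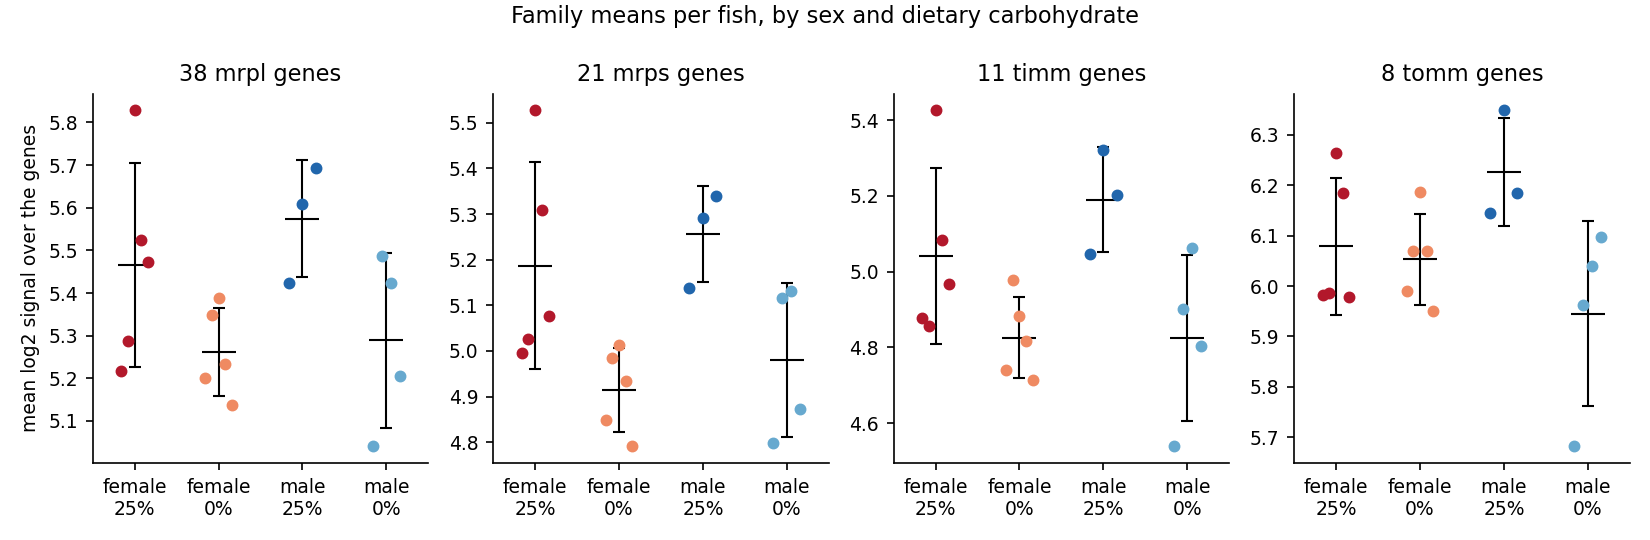
Mean log2 signal over the genes of each family in each fish (points), with the mean and SD of each group (bars), for females and males on 25% and 0% carbohydrate. Female fish 24 is the highest female and male fish 11 the lowest male in all 4 families, and the diets overlap in every family for females.

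The level of the whole set varied from fish to fish. The mean over all 78 genes was 5.19, 5.23, 5.74, 5.47 and 5.35 in females on 25% (fish 3, 20, 24, 49 and 51), against 5.12, 5.27, 5.30, 5.18 and 5.07 in females on 0%. In males it was 5.37, 5.56 and 5.58 on 25%, against 4.97, 5.35, 5.36 and 5.15 on 0% (fish 11, 26, 30 and 66). The diets overlapped in females, where fish 3 and 20 lay among the fish on 0%, and in males the fish on 25% lay above those on 0%, narrowly so for fish 52 and 30. Female fish 24 held the highest value of its group for 52 of the 78 genes, against 19.5% of all genes, and male fish 11 the lowest of its group for 42, against 34.6%. Without female fish 24 the median diet difference in females was 0.16, with 62 of 78 genes above 0. Without male fish 11 the median in males was 0.18, with 64 above 0, and without male fish 11, 52 and 66 it was 0.19, with 60 above 0 (48.5% of all genes). In that last setting, with 2 fish in each male group, 40 genes were apart with the 25% fish higher and 3 with them lower, against 20% and 19.3% of all genes. Without female fish 24 the number of genes apart in females was 6 higher and 1 lower (3.67% and 1.56% of all genes).

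Ovary markers differed by diet in females as well. Their mean was 5.43 to 6.38 in females on 25%, against 3.56 to 4.82 in females on 0%, with 15 of 19 measured markers higher and 3 below the array median on all arrays. In males it averaged 3.35 on 25% and 3.41 on 0%, with 0 of 19 called. Of all genes, 2.19% passed higher and 0.216% lower on 25% in females, and 0.136% higher and 0.0341% lower in males. Exocrine pancreas markers averaged 7.94 to 11.47 in females on 25%, against 6.87 to 9.60 in females on 0%, and 6.45 to 10.37 in males on 25%, against 7.76 to 12.15 in males on 0% (15 of 29 measured, 0 called for either diet difference). Their group means were 9.91 and 8.46 in females on 25% and 0%, and 8.66 and 10.03 in males on 25% and 0%. Female fish 24 (11.47) and male fish 11 (12.15) each had the highest exocrine mean of their group, while their means over the 78 genes were the highest (5.74) and the lowest (4.97) of their groups. Endocrine pancreas markers averaged 5.12 in females on 25% and 3.55 in females on 0%. In males they averaged 5.06 on 25% and 4.38 on 0%, with 6 of 7 differences above 0 in each sex and 0 called. Here female fish 24 had the highest mean of its group (6.45) and male fish 11, narrowly, the lowest of its group (3.37). Both lay on the same side as their means over the 78 genes. Other fish went the other way. Male fish 66 had the highest endocrine mean of its group, but not the highest mean over the 78 genes. Male fish 52 had the highest endocrine mean of its group (6.98) and the lowest mean over the 78 genes (5.37). Female fish 20 had a high endocrine mean (6.24), and its mean over the 78 genes (5.23) lay among the females on 0%. Leukocyte markers averaged 5.24 in females on 25% and 5.70 in females on 0%, and 5.66 in males on 25% and 5.86 in males on 0%, with 0 of 9 called. The part of any of these cell types in the diet differences was not tested.

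Females were compared with males, over both diets, to ask how the liver differs between the sexes. By sex the median log2 difference, female minus male, was -0.05 (all genes 0.01), with 33 of 78 above 0 against 52.3% of all genes, and it turned to 0.02 under quantile normalization. Without male fish 11, 52 and 66 it was -0.16, with 16 of 78 above 0 against 49.8% of all genes, and with array weights it was -0.10, with 23 above 0. Mrpl30 was higher and mrps5 lower in females, so 2 of 78 passed, while 15.7% of all genes passed, 9.47% higher and 6.22% lower. No gene had all females above or below all males, as 1.84% and 0.341% of all genes had. At 0% carbohydrate 1 gene passed (mrpl30; 2.96% of all genes higher, 1.25% lower) and at 25% none did (4.21% and 1.51%), with 8 at an unadjusted p below 0.05 against 20.2% of all genes. At 0% the sexes were apart for 3 genes higher in females (mrpl2, mrpl30 and timm8a; 6.54% of all genes) and 2 lower (mrpl15 and mrps5; 3.31%), and at 25% for none higher (8.04%) and 1 lower (mrpl49; 4.57%). Over both diets 15 had an unadjusted p below 0.05, against 32.5% of all genes.

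Mrpl30, counterpart of a bacterial large subunit protein, had a lowest, median and highest value of 7.24, 7.40 and 7.84 in the 10 females, against 6.67, 6.99 and 7.29 in the 7 males. Of the males, fish 54 at 7.29 reached into the female range. The difference was 0.45 ± 0.10 (adjusted p = 0.00584) and passed in each of the 24 alternatives, with adjusted p values from 0.00241 to 0.0477. At 0% the difference was 0.50 ± 0.13, with the sexes apart (adjusted p = 0.0453). This call was lost in 12 of 17 cases when 1 fish was left out (highest adjusted p 0.114) and without male fish 11, 52 and 66 (0.135). When the fish left out was on 0%, the call held only without male fish 30. The other fits that kept it left out a fish on 25%, which does not change this difference. At 25% the difference was 0.39, without passing.

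The result for mrps5, counterpart of a small subunit protein of bacteria, rested on 1 of its 3 probe sets. In the brightest, females had 3.57, 3.73 and 5.13 as lowest, median and highest value, against 4.03, 4.53 and 5.00 in males, and the difference was -0.65 ± 0.16 (adjusted p = 0.0146). Female fish 24, at 5.13, was above every male, and without it the difference was -0.78. The second probe set, with nearly the same mean signal, had medians of 4.22 in females and 4.02 in males and a difference of 0.15 (adjusted p = 0.377). The third had medians of 3.49 in females and 3.45 in males (difference -0.04, adjusted p = 0.755). With the mean of the 3 probe sets the difference was -0.18 and did not pass (adjusted p = 0.151). The diet difference of mrps5 was likewise larger in the brightest probe set, at 0.47 in females and 0.59 in males, than in the others. It was 0.02 and 0.28 in the second, and -0.03 and 0.20 in the third. Over the 11 genes with several probe sets, the probe sets had the same sign for 7 genes by sex, for 10 by diet in females and for 10 by diet in males.

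**Figure D4:**
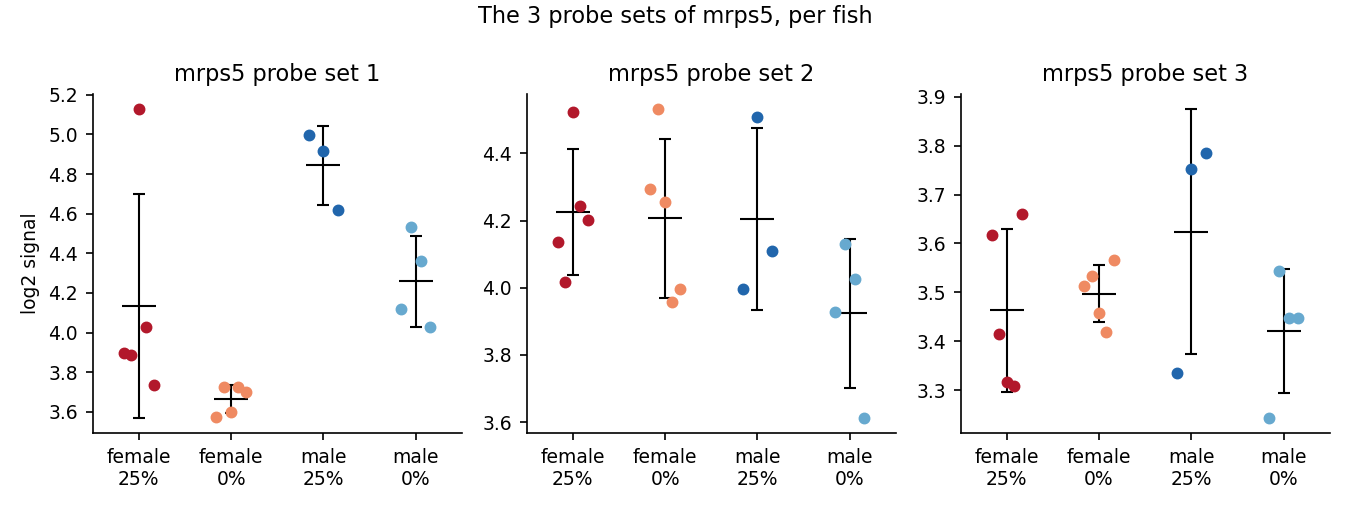
Log2 signal of the 3 probe sets of mrps5 in each fish (points), with group means and SDs (bars), in order of their mean signal. The female groups lie below the male groups in the first probe set, with female fish 24 as the exception at 5.13, and not in the second.

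Mrpl24, a large subunit protein with a bacterial counterpart, had 5.47, 5.67 and 6.64 as lowest, median and highest value in females, against 5.42, 6.46 and 6.90 in males, a difference of -0.60 ± 0.20 (adjusted p = 0.0524). It passed under 4 of 7 alternatives and in 3 of 17 fits without 1 fish. The number of genes that passed by sex changed with the fish left out. It was 10 without female fish 24, 9 of them lower in females, and 8 without male fish 11, 52 and 66, 7 of them lower. Mrpl24, mrpl45 and mrps5 were among the lower genes in both of these settings. Without female fish 25 and without male fish 52 it was 4 each. With all fish, 15.7% of all genes passed by sex, and the share in the fits that left out fish is not given here. Whether these changes in number are particular to the mitochondrial ribosome and import genes was therefore not tested. Mrpl32 differed by 0.26 ± 0.09 (adjusted p = 0.0571) and mrpl43, below the array median on all arrays, by -0.02 ± 0.07.

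The 2 copies of the presequence receptor gene tomm20 gave different values. Tomm20a had 6.39, 7.23 and 7.64 as lowest, median and highest value in females, against 5.41, 6.72 and 7.07 in males, a difference of 0.63 ± 0.24 that did not pass (adjusted p = 0.1, and 0.0419 without female fish 3). Its lowest values were 5.41 in male fish 11, 6.11 in male fish 26, 6.25 in male fish 52 and 6.39 in female fish 3. Tomm20b differed by 0.15 ± 0.16 (adjusted p = 0.577), and its second probe set by -0.27. Timm17a had the largest difference of the timm genes by sex, -0.23 ± 0.18 (adjusted p = 0.415).

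The interaction, in which the diet difference of males was subtracted from that of females, asks whether the sexes respond differently. None of the 78 genes passed, against 0.796% of all genes, and 3 had an unadjusted p below 0.05 (mrpl41, mrps34 and tomm7), against 6.66% of all genes. The lowest adjusted p was 0.384, for tomm7 (-0.54 ± 0.17). For mrps34 the interaction was -0.47 ± 0.20 (adjusted p = 0.727), so a difference between the sexes in response was not shown.

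Other gene lists were set beside these. Genes of oxidative phosphorylation had median diet differences of 0.22 in females and 0.25 in males over 83 genes, close to those of the 78 genes, with 0 called in either sex. Averaged over the sexes 5 of the 83 rose, namely cox7a2a, cycsb, ndufc1, ndufs1 and sdhc, by 0.40 to 0.84, while 1.81% of all genes rose. By sex 1 of the 83 was higher and 8 were lower in females, with a median of -0.14. Of all genes, 9.47% were higher and 6.22% lower in females. For proteins of the cytosolic ribosome, over 73 genes, the diet medians were -0.06 in females and -0.01 in males, and by sex 64 were higher in females with a median of 0.33, whereas the mitochondrial ribosome genes had sex medians of -0.06 (mrpl) and -0.02 (mrps). This contrast of lists was not tested.

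Genes of mitochondrial translation, such as translation factors and transfer RNA synthetases, had diet medians of 0.09 in females and 0.12 in males (25 of 52 listed genes measured, 0 called). That list also names some ribosome proteins without the mrpl or mrps prefix, such as dap3. Partners of import, such as the matrix chaperones and processing peptidase, had 0.07 in females and 0.28 in males (22 of 39, 0 called). Mitochondrial proteases, listed together with other quality control genes, had 0.27 and 0.17 (9 of 16, 0 called). Genes of mitochondrial DNA upkeep and transcription had 0.06 and 0.10 (14 of 24, 0 called), and regulators of mitochondrial biogenesis 0.06 and -0.12 (9 of 19, 0 called). By sex, 9.47% of all genes passed higher in females and 6.22% lower. In these 5 lists, gars1, which charges glycine onto transfer RNA in the cytosol and in mitochondria, was higher in females by 0.46 ± 0.12 (adjusted p = 0.0172). So did the import partner genes mtx1b, for an outer membrane sorting protein, by 0.29 ± 0.07 (adjusted p = 0.0175) and apool, for a protein that shapes the inner membrane, by 0.29 ± 0.08 (0.0199). Myca, the Myc transcription factor gene, was lower in females (-0.51, adjusted p = 0.0493), below the array median on 15 of 17 arrays. No gene of these 5 lists passed for diet in females, in males or averaged over the sexes.

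**Figure D5:**
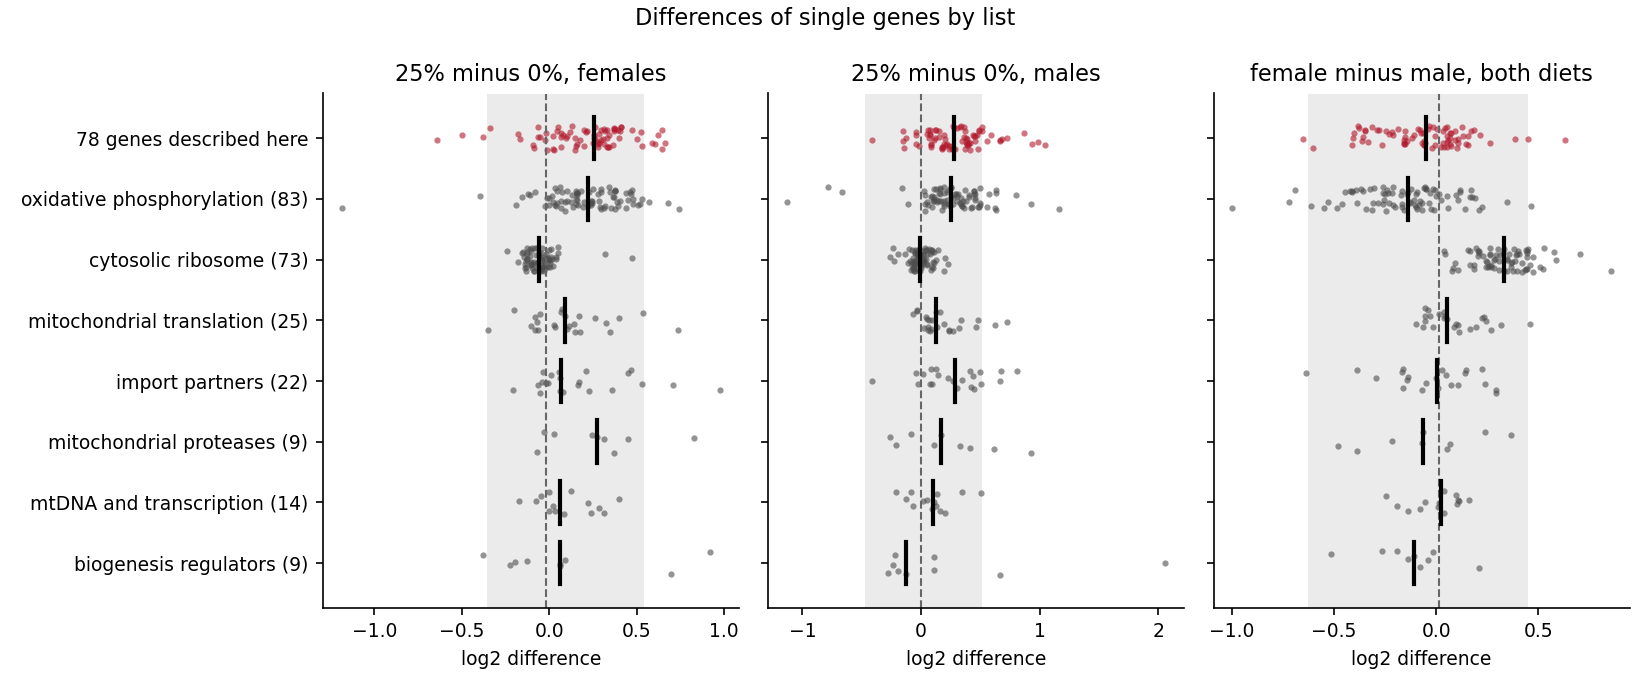
Log2 differences of single genes (points) in the 78 genes and in 7 comparison lists (numbers of genes in brackets), for 25% minus 0% in females and in males and for female minus male; short bars are list medians, the dashed line is the median of all genes and the grey band spans their 5th to 95th percentile. The medians of the 78 genes and of oxidative phosphorylation lie right of the dashed line for diet in both sexes. Those of mitochondrial translation, import partners, mitochondrial proteases, and mtDNA and transcription do so as well. The cytosolic ribosome lies right of it by sex.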

How the data were processed

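The authors deposited 1 log2 signal per probe set and array, on a scale whose base was taken from their spread (1.82 to 14.38). MAS5, RMA, GCRMA and PLIER stand in the submitters' processing notes, and which of them made the table is not given in the sources used here. After 115 control probe sets were left out, 15502 entered a limma 3.58.1 model run in R 4.3.3 (lmFit and eBayes, means of the 4 groups, all 17 arrays, Benjamini-Hochberg adjustment, threshold 0.05), without a filter on low values. Precision is limited by the number of arrays. All 78 genes matched the reference by Entrez ID. Standard errors are from the fit. The fit was also run on simulated data, with an outcome not given here. Noise was drawn separately for each probe set and array, without shifts shared by the genes of a fish.

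The members, lists, naming rule and alternatives were chosen with earlier results of these data known. Named genes are those past the threshold (up to 8 each way per contrast), 2 with the highest and 1 with the lowest mean per family, and the largest difference per family by sex and by diet in females. Other members named singly, such as timm44, timm9, timm8b, timmdc1, tomm40, tomm7, mrpl45 and mrps18b, were chosen after their values were seen. Alternatives were quantile normalization, median centring, array weights, a robust eBayes fit with a trend, the brighter 50% of probe sets, averaging the probe sets of a gene, fitting only the groups compared, leaving out male fish 11, 52 and 66, and leaving out each fish. The diet contrast averaged over the sexes was added after seeing the data.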

Additional observations from a re-analysis of the deposited data

Results flagged for a closer look

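Among 84 groups of 4 or 5 fish, 5 held a fish far from the rest of its group by Dixon's test, where chance gives about 1 in 20. Mrps5 in female fish 24 on 25% was 5.13, with the other 4 at 3.74 to 4.03. Mrpl32 in female fish 51 on 25% was 6.99, with the others at 6.55 to 6.66. Tomm20a in female fish 3 on 25% was 6.39, with the others at 7.50 to 7.64. Mrpl49 in male fish 11 on 0% was 5.25, with the others at 5.96 to 6.10. Mrps33 in male fish 30 on 0% was 2.73, with the others at 2.51 to 2.52, all below the array medians.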

How the results depend on the processing

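The medians of the 78 genes moved by less than the spread of their mean between fish of a group (SD 0.17) in every alternative; in females the diet median ran from 0.16 to 0.32 without 1 fish and from 0.19 to 0.28 otherwise, in males from 0.18 to 0.35 and from 0.19 to 0.29. Counts of genes past the threshold moved more, and the share of all genes past it in each alternative is not given here. By sex 2 passed, and 4 under quantile normalization, 9 with array weights, 1 with probe sets averaged per gene, 8 without male fish 11, 52 and 66, and 2 to 10 without 1 fish. The sex median, -0.05, ran from -0.16 without male fish 11, 52 and 66 (16 of 78 genes above 0) to 0.02 under quantile normalization (44 above 0), the only alternative above 0. At 0% the sex count was 1, and 3 under quantile normalization, 2 with only the groups compared, 0 with trend and robust settings, 0 without male fish 11, 52 and 66, and 0 to 1 without 1 fish; at 25% it was 0, and 1 with array weights and 0 to 2 without 1 fish. For diet in females it was 1, and 2 under quantile normalization (1 of them lower), 0 with array weights, 2 without male fish 11, 52 and 66, and 0 to 3 without 1 fish, 3 of them without female fish 3. For diet in males and the interaction it was 0 in every alternative. For diet averaged over the sexes it was 4, and 2 without male fish 11, 52 and 66, and 1 to 8 without 1 fish, lowest without male fish 53 and highest without female fish 3. The cause of these moves was not tested. No paired analysis was possible because each fish has a number of its own and the groups share none.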
